A study of Mus musculus with 15 samples.

Results

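The comparison is between promoter contacts of the Reactivated and the Basal groups in sorted hippocampal neuronal nuclei of mice. It comprises 7 of the 15 libraries of the series, 4 named Reactivated and 3 named Basal, chosen by their titles. Together these 7 libraries gave a score to 20065 of the 36353 listings in the deposited table, where a listing is a pair of a gene promoter and a HindIII restriction fragment. The table lists 4429 promoters and 33334 fragments. A Basal library scored 10081 of the listings and a Reactivated library 12940.

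A promoter can be brought close to distant enhancers by folding of the chromatin fibre, and such contacts are held in place by proteins that include cohesin, CTCF and Mediator. Promoter-capture Hi-C joins DNA fragments that lie close together in fixed nuclei, pulls out those joined to a baited promoter and counts them by sequencing. In neurons, sets of cells that were active while a memory formed and become active again at recall are called an engram, and enhancer contacts of activity-regulated genes have been studied in such cells.

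All libraries came from the mouse line ArcCreERT2 x R26R-STOP-floxed-eYFP, genotype +/+, in which a tamoxifen-dependent Cre recombinase made under control of the Arc gene switches on a yellow fluorescent protein in cells active while the drug is present. Mice were kept in the dark from 1 day before contextual fear conditioning and received 4-hydroxytamoxifen 1 h before it. The treatment label of every library reads no recall and gives each its own collection day, from 0 to 14, which goes against the group names, so groups were taken from the titles. Per the treatment protocol, brains were taken 1.5 to 2 h after conditioning, or at 5 days with or without a new exposure to the tone and context. The protocol does not say which of these intervals belongs to the groups named Basal and Reactivated, nor how Basal mice were treated, and gives no age. Hippocampi of 10 to 12 mice were pooled to obtain 10000 nuclei per condition, sorted with antibodies to NeuN and GFP. Fixation was in 2% paraformaldehyde (10 min). After 17 cycles of PCR, a set of 10000 RNA baits drew out about 5000 promoters. The design text speaks of biological replicates but not of which mice each library came from, so the p-values below measure only the spread between these libraries. In pooled nuclei, a contact present in fewer nuclei and a contact that is weaker in every nucleus cannot be told apart. Contacts are not expression, so the neuronal identity of the nuclei could not be checked against marker genes.

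The 7 libraries fell into pairs and a single one. Basal 1 and 2 shared 91.3% of the fragments of the smaller library, Reactivated 3 and 4 shared 95.7%, and all 32 fragments of Reactivated 1 were also in Reactivated 2, which had 335. Basal 3 shared 16.4% with Basal 1, and Reactivated 3 shared 13.7% of the fragments of Reactivated 2. Reactivated 3 and 4 were kept as separate libraries in the main fits. Their scores differed by more than counting noise, which does not show that they are independent replicates. Fits with library sets entered as means are therefore also given. The total score was 1857343 in Basal 1, 1033387 in Basal 2, 110226 in Basal 3, 3097 in Reactivated 1, 36997 in Reactivated 2, 7144270 in Reactivated 3 and 8218439 in Reactivated 4. The depth of the Reactivated group therefore lay almost wholly in a single pair of libraries that share their fragments, and its other pair listed few contacts.

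The sequences of 4 promoters are printed to show the regulatory DNA whose contacts are described below: Rgs2, an activity-regulated inhibitor of G protein signalling, and Grin1, the obligatory subunit of NMDA receptors, had more contacts in Reactivated 3 and 4, and Nfil3, a basic leucine zipper repressor, and Nktr, a cyclophilin-family protein, had called contacts in Basal and none in those 2 libraries. Each sequence is the 250 bases before the transcription start in RefSeq, build GRCm38.p6, 5′ to 3′ on the strand of the gene. Capitals mark TGACG, the half-site bound by CREB-family factors, on either strand. The positions are chr1:144004150-144004399 for Rgs2, chr2:25319188-25319437 for Grin1 and chr13:52981040-52981289 for Nfil3, all on the minus strand, and chr9:121718931-121719180 for Nktr on the plus strand.
Rgs2: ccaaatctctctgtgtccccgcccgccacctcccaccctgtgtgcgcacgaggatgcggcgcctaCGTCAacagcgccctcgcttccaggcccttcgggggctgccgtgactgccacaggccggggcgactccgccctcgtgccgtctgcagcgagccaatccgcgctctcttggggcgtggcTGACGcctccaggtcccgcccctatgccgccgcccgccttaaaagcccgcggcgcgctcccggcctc
Grin1: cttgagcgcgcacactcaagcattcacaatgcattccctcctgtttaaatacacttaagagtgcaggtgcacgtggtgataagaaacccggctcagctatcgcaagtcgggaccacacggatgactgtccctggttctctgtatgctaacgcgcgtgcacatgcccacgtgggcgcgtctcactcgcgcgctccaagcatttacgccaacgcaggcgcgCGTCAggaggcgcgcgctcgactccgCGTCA
Nfil3: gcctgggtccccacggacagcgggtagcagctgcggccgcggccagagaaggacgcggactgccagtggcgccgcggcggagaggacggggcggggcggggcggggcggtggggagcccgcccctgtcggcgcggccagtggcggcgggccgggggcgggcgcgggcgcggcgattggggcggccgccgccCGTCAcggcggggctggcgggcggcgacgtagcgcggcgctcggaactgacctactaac
Nktr: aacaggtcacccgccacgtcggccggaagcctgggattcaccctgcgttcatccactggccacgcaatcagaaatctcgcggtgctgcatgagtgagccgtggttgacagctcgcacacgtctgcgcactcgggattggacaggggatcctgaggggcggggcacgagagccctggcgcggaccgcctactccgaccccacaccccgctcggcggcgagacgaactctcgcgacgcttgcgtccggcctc
Rgs2 and Grin1 each held 2 such half-sites, Nfil3 held 1 and Nktr 0, and 17.8% of the 32851 RefSeq promoters of this length held at least 1. The AP-1 sequence TGANTCA, searched on both strands, was in none of the 4 windows and in 6.75% of all of them. The AAGCTT site that HindIII cuts was also in none of them and in 6.22% of all windows. Of the 4429 promoters in the table, 3262 had a sequence under the same symbol (73.7%), and motifs were not compared between promoters with and without a change. The 4 promoters are chosen examples, so their numbers of half-sites say nothing about promoters with more or fewer contacts. A match in these letters is a description and says nothing about binding.

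More contacts were called in the Reactivated group than in the Basal group as deposited, and at equal totals the order depended on whether calls were counted per library or pooled per group. With a call set at a score of 5 or more, Basal 1, 2 and 3 had 4544, 4021 and 5833 called listings, Reactivated 1 and 2 had 30 and 248, and Reactivated 3 and 4 had 11068 and 11658. A contact called in any library of a group was counted once, which gave 9856 in Basal and 12289 in Reactivated, with 2823 called in both. Those shared calls were 28.6% of the Basal and 23.0% of the Reactivated calls. Without Reactivated 1 and 2 the Reactivated count was 12089. When the scores of Basal 1 to 3 and Reactivated 3 and 4 were thinned at random to the lowest total among them, the calls became 3745, 3464 and 5833 in Basal and 5852 and 5856 in Reactivated, or 9213 against 6594 per group. By library, Reactivated 3 and 4 still had more calls than Basal 1 and 2 and about as many as Basal 3. The thinning was drawn once, so the small margin over Basal 3 has no measure of its spread. The order turned only in the count per group, which pools 2 kinds of Basal library against 1 Reactivated pair. The Basal count also rested on Basal 3: without it 4863 Basal calls were left, and requiring a call in at least 2 libraries left 3877 in Basal and 10670 in Reactivated.

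**Figure D1:**
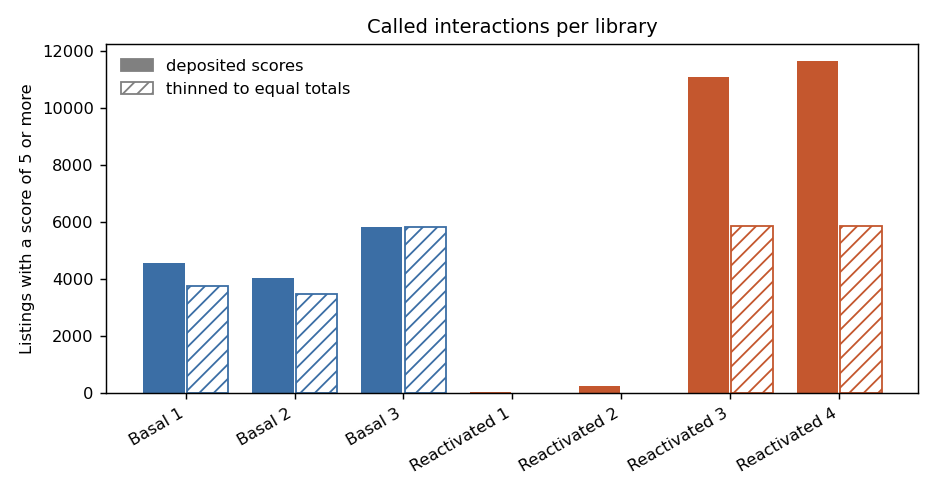
Number of listings with a score of 5 or more (vertical axis) in each of the 7 libraries, with deposited scores as filled bars and with scores thinned to equal totals as hatched bars; blue is Basal and orange is Reactivated, and Reactivated 1 and 2 were not thinned. Reactivated 3 and 4 stand at 11068 and 11658 as deposited and at 5852 and 5856 after thinning, next to 5833 in Basal 3.

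Contacts of Basal libraries were found in Reactivated 3 and 4 at a higher share than in the other kind of Basal library, with the larger lists of Reactivated 3 and 4 as the place of search. Of the 3716 listings scored in both Basal 1 and 2, 18.5% were also scored in Basal 3 and 29.7% in both Reactivated 3 and 4. After thinning to equal totals these shares were 18.6% and 22.4%. Of the 6039 listings of Basal 3, 11.4% were found in Basal 1 and 2 and 26.5% in Reactivated 3 and 4, or 11.1% and 21.0% after thinning. In the other direction, 9.95% of the 11094 listings scored in both Reactivated 3 and 4 were in Basal 1 and 2 and 14.4% in Basal 3. Thinning left 8066 listings in both Reactivated 3 and 4, still more than the 6039 of Basal 3, and no test of these shares was made.

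Counting a contact as shared when the same promoter had a fragment within 50 kb raised these shares without changing their order. Of the Basal 1 and 2 listings, 38.1% then had a partner in Basal 3 and 60.5% in Reactivated 3 and 4, and 38.4% and 51.5% after thinning. Within 250 kb the deposited shares were 55.7% and 78.5%. At the level of whole promoters, 63.3% of the 2163 promoters with a listing in Basal 1 and 2 had one in Basal 3, and 88.7% had one in Reactivated 3 and 4. Over both groups, 2825 promoters had a scored fragment in Basal and in Reactivated 3 or 4, 844 in Reactivated 3 or 4 only, 367 in Basal only and 393 in neither.

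**Figure D2:**
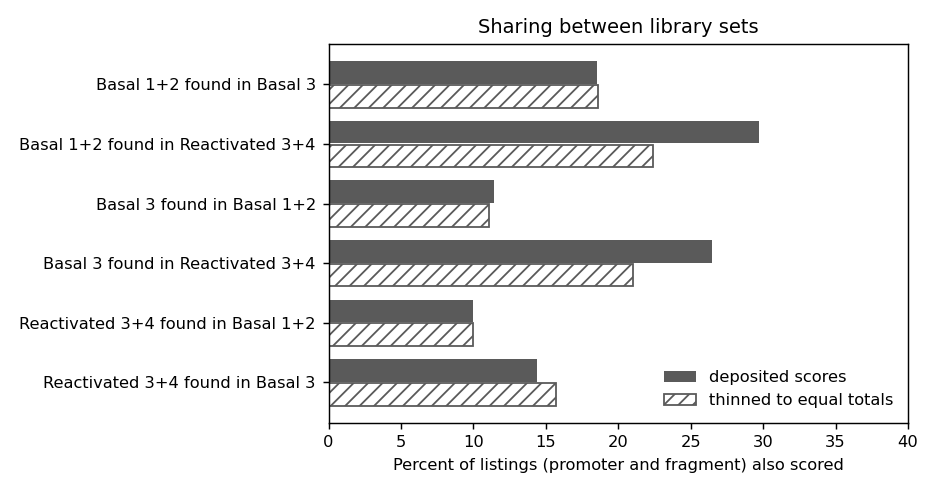
Percent of the listings of a library set (first name in each row) that were also scored in a second set, for deposited scores (filled) and scores thinned to equal totals (hatched). Basal 1 and 2 shared 18.5% of their listings with Basal 3 and 29.7% with Reactivated 3 and 4.

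The strength of a shared contact was alike within a pair of libraries and less so between pairs. Across fragments scored in both libraries, Pearson's r of log2 scores was 0.968 for Basal 1 and 2 and 0.981 for Reactivated 3 and 4. It was 0.007 over the 640 fragments shared by Basal 1 and 3, 0.18 over the 1041 shared by Basal 1 and Reactivated 3, and 0.049 over the 1254 shared by Basal 3 and Reactivated 3. With Reactivated 2, r was 0.445, 0.541 and 0.460 for Basal 1, 2 and 3 and 0.265 and 0.390 for Reactivated 3 and 4, over 38 to 47 fragments each. These correlations run across fragments, which share their libraries and are not independent replicates. The values within the pairs were higher than all of those given here between them.

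With all 7 libraries, no contact passed the test. Limma on the asinh scale, which behaves like a natural logarithm for large scores and takes a missing score as 0, passed 0 of 36353 listings (0.0%) at a Benjamini-Hochberg adjusted p under 0.05, with an unadjusted p under 0.05 for 4979 listings higher in Reactivated and 2383 lower. The number rested on single libraries: without Reactivated 1 it was 3948, without Reactivated 2 it was 4468, without both 9052, and without Basal 3 it was 2270, of which 2269 were lower in Reactivated. Only 3 listings were scored in all 4 Reactivated libraries, of which Reactivated 1 held 35 listings. None of these 3 was without a Basal score, which with so small a library says little about contacts particular to Reactivated. A single listing was scored in all 7, a fragment of Nfxl1, a zinc finger gene related to NFX1, at chr5:72951405-72951945 in mm9. Its scores were 3198, 1826 and 128 in Basal and 186, 186, 636 and 564 in Reactivated, and it was picked out after these values were seen.

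The fragments with the largest positive differences over all libraries were scored in Reactivated 2, 3 and 4 and in no Basal library. A fragment of Skp1a, a core subunit of SCF ubiquitin ligases, at chr11:52047042-52050528 scored 0, 643, 4233 and 4839 in Reactivated 1 to 4. Its difference in mean asinh score was 6.35 ± 3.35 (SE, 4 against 3 libraries), with a limma adjusted p of 0.269. A fragment of the zinc finger gene Zfp949 at chr9:88302215-88316225 scored 0, 92, 1656 and 2004. For Ide, which encodes insulin-degrading enzyme, a fragment at chr19:37383820-37392294 scored 0, 197, 1069 and 1165. A fragment at chr15:77589374-77592946 scored 0, 172, 583 and 649. That fragment is listed with Rbfox2, a splicing regulator, with the kinase gene Mapk15 and with Zfp251, so which promoter its score belongs to is unknown. In these fragments the groups overlapped, since Reactivated 1 was at 0 like Basal, and the adjusted p was 0.191 to 0.269.

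The largest negative differences belonged to 6 fragments that were scored in all 3 Basal libraries and in no Reactivated library. Arfgef1 encodes an exchange factor for ARF GTPases of the Golgi, and its fragment at chr1:10206408-10209325 scored 1471, 912 and 103 in Basal 1 to 3. A fragment of Nktr at chr9:121658997-121661343 scored 1627, 1039 and 42. Camk1d, a calcium/calmodulin-dependent kinase, had a fragment at chr2:5643033-5644952 with scores of 1959, 1193 and 34. The ubiquitin ligase receptor gene Fbxw2 had one at chr2:34683879-34685518 with 2343, 1309 and 35, and Cnpy3, a chaperone of Toll-like receptors, one at chr17:46911088-46911476 with 1851, 1209 and 32. A fragment at chr18:40685838-40693182 listed with Rps19, a protein of the small ribosomal subunit, scored 2027, 1282 and 34. Rps19 is listed with fragments on chromosomes 18 and 7. Reactivated 3 and 4 scored others of them, chr18:40891666-40894367 at 5205 and 5525 and chr7:25681821-25688739 at 2894 and 3927. The groups did not overlap in the 6 fragments of largest fall, which were chosen by their scores. Their differences were -6.94 to -6.72 with adjusted p from 0.181 to 0.193 over all libraries.

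Averaged over the listed fragments of each promoter, 1 of 4429 promoters passed (0.0226%), with an unadjusted p under 0.05 for 335 higher and 162 lower in Reactivated. It was Dclre1c, which encodes Artemis, a nuclease of DNA end joining and V(D)J recombination. Dclre1c has 1 listed fragment, at chr2:125128101-125133012, which scored 722, 446 and 17 in Basal and 0 in every Reactivated library. Its limma adjusted p was 0.0337, and the call was lost when Basal 1, Basal 2, Reactivated 3 or Reactivated 4 was left out (adjusted p 0.0665 to 0.198) and when library sets were entered as means (0.268). The number of promoters passing was 62 without Basal 3, 61 of them lower, and 2020 without Reactivated 1 and 2, 1961 of them higher.

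Reactivated 3 and 4 were then compared with Basal after scaling every library to the same total. Scaling leaves a missing score at 0, so it does not undo a difference in depth. Of 36353 listings, 6973 were higher (19.2%) and 305 lower (0.839%) by limma on 13 libraries. With scores thinned to the lowest total in place of scaling, 5119 were higher and 286 lower. Of the 6973, 6768 had no Basal score, and 5379 (77.1%) were scored in these 2 libraries alone of the 13. A listing scored in 2 alike libraries and in none of the others has little spread within any group. Its passing therefore follows largely from the pattern of presence, and by presence or absence alone 5387 listings passed as higher. Of the 305 lower, 257 had no score in Reactivated 3 or 4. The spread behind these calls on the Reactivated side is that between 2 libraries that share 95.7% of their fragments, so the counts say how the pair differed from Basal and not how another Reactivated library would. Leaving out Basal 3 gave 2347 lower listings in place of 305.

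By presence alone, 8467 listings (23.3% of all) were scored in both Reactivated 3 and 4 and in no Basal library, and they belonged to 3252 promoters. In the other direction, 366 listings (1.01%) of 324 promoters were scored in all 3 Basal libraries and in neither Reactivated 3 nor 4. The first requirement asks for 2 libraries of a pair and the second for libraries of both Basal kinds, so these counts are not comparable in size. Of the 8467, 36.4% were also scored in a library of the Early or Late groups, the other conditions of the series, and of the 366 it was 75.4%. The shares were 41.7% of all 11094 listings scored in both Reactivated 3 and 4 and 76.5% of all 688 scored in all 3 Basal libraries. The 75.4% is therefore near the share of any listing scored in all 3 Basal libraries. A further 309 listings were scored in Reactivated 3 and 4 and in all 3 Basal libraries.

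The 8 leading fragments found in Reactivated 3 and 4 and in no Basal library scored 6364 or more in both. Of these, 4 were also scored in the Late group, that of Qser1 at 971 and 707, that of Thap2 at 140, that of Rgs2 at 21 and that of Cbln4 at 10. A fragment of Atp6v1g1, a subunit of the proton pump that acidifies synaptic vesicles and lysosomes, at chr4:63136364-63136626 scored 10160 and 10572, and none of the other libraries of the series gave it a score. A fragment of Cbln4, a secreted synapse organiser of the cerebellin family, at chr2:171871300-171873908 scored 7911 and 8493. For Mios, a component of the GATOR2 complex that relays amino acid supply to mTORC1, a fragment at chr6:4497872-4501394 scored 6652 and 7257, and another at chr6:7640627-7642899 scored 6309 and 7222. The fragment of Rab33b, a Golgi GTPase with a role in autophagy, at chr3:51276610-51279408 scored 6832 and 7374. Rgs2 shared its fragment at chr1:145643667-145645787 with the promoter of Trove2, and it scored 6364 and 7297. Both libraries gave like values for each fragment and every Basal value was 0.

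The other 3 of the 8 were fragments of Qser1 (7492 and 8285), of the metalloprotease gene Adamts7 (6655 and 8350) and of the THAP-domain gene Thap2 (6872 and 7693). All 8 passed in the equalised comparison, with differences of 7.44 to 7.86 on the asinh scale, but Rgs2 (adjusted p 0.475) and Thap2 (0.387) not with the library set as a random block. These 8 were chosen by that same difference, so their passing is no separate support for it. For Atp6v1g1 the difference was 7.86 ± 0.14 (SE) with a limma adjusted p of 3.77e-11, and for Qser1 it was 7.59 ± 1.96 with 0.0185. Qser1 lost the call without Basal 1, Basal 2, Reactivated 3 or Reactivated 4 (adjusted p 0.0502 to 0.0944) and with the replicate number as a block (0.136). Smaller fragments were among them: those of Atp6v1g1, Qser1, Adamts7 and Thap2 were 259 to 399 bases long, and over all 8467 listings the median length was 2902 bases. Among the listings with the smallest p there were also fragments of Csgalnact1, an enzyme of chondroitin sulfate synthesis, Ogfrl1, the netrin receptor gene Unc5c and the kinase gene Map3k10, with scores of 5335 to 6473.

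The 8 leading fragments found in all 3 Basal libraries and in neither Reactivated 3 nor 4 included the 6 above. The other 2 belonged to Cldn12, a claudin of cell junctions, and Zdhhc3, an enzyme that attaches palmitate to synaptic proteins. The Cldn12 fragment at chr5:5506587-5510978 scored 4040, 2390 and 87 in Basal and 1000 in Reactivated 2, so the contact was not absent from the Reactivated group. The Zdhhc3 fragment at chr9:123028720-123035783 scored 4798, 2912 and 15 in Basal and 57 in Reactivated 2. In the equalised comparison all 8 passed, with differences of -8.02 for Cldn12 to -7.19 for Nktr. They too were chosen by that difference, so their passing is no separate support for it. By presence or absence of a score, 0 of 36353 listings passed as lower. With deposited scores the calls of Arfgef1, Camk1d, Cnpy3 and Fbxw2 were lost (limma adjusted p 0.0589 to 0.0898). These 4 also lost them with library sets entered as means, which leaves 1 Reactivated value (differences -7.43 to -6.98). The calls of Arfgef1, Camk1d, Cnpy3, Fbxw2 and Zdhhc3 were lost without Basal 1 or 2 (adjusted p 0.0584 to 0.119) and without Reactivated 3 or 4 (0.0843 to 0.184), and those of Cnpy3 and Fbxw2 also without Basal 3 (0.054 and 0.0564).

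Contacts strong in both groups were found as well. A fragment at chr16:49856581-49856855, listed with Cd47, the signal that restrains phagocytes, and with the nectin gene Pvrl3, scored 3816, 2158 and 37 in Basal and 9867 and 12167 in Reactivated 3 and 4. A fragment of Zfp687 at chr3:94821031-94823788 scored 1626, 958 and 64 in Basal and 450, 7844 and 7080 in Reactivated 2, 3 and 4. The fragment at chr10:85392992-85396117, listed with Ascl4, Prdm4 and Pwp1, scored 3451, 2089 and 77 in Basal and 2722 and 3343 in Reactivated 3 and 4. The equalised differences were 0.24 ± 2.57, 0.22 ± 0.81 and -1.25 ± 1.13 (SE), with limma adjusted p of 0.685 to 1, and the sign of the first and the last changed with the setting.

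**Figure D3:**
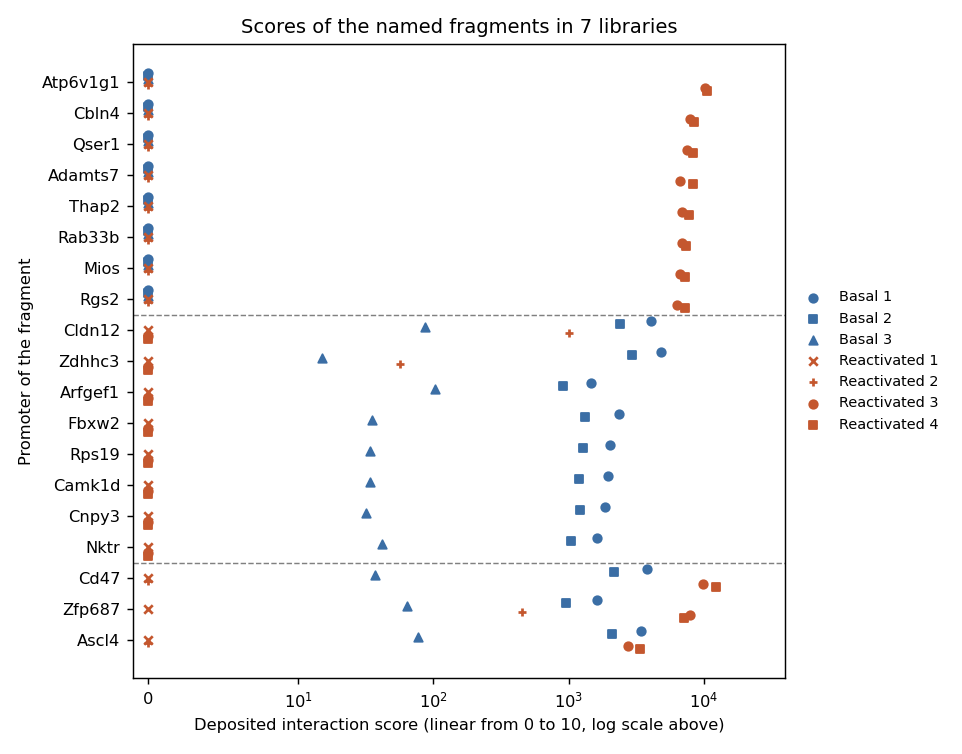
Deposited interaction score (horizontal axis, linear to 10 and logarithmic above) of 1 fragment per promoter in the 7 libraries, with blue for Basal, orange for Reactivated and a marker for each library. From top to bottom, the blocks are 8 fragments of Reactivated 3 and 4 at 6364 to 10572, 8 fragments of all 3 Basal libraries and 3 fragments of both groups.

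For mean scores of promoters with totals scaled to be equal, 593 of 4429 were higher (13.4%) and 27 lower (0.61%) in Reactivated 3 and 4. With scores thinned to the lowest total, 386 were higher and 34 lower. The median difference over all promoters was 0.48 on the asinh scale, so a promoter near that value did not stand apart. Entering library sets as means, with the pair of Reactivated libraries as 1 value, left 93 promoters higher and 0 lower, and the set as a random block left 101 and 3. The 10 promoters with the smallest p had 1 or 2 listed fragments and no Basal score. They included Zfyve16 and Uaca, the growth factor gene Bmp4, the microglial adaptor gene Tyrobp, the receptor gene Gpr179, the membrane linker gene Ezr, the Polycomb gene Pcgf3, the cell cycle regulator E2f1 and Erc2, a scaffold of the presynaptic active zone. Their differences ranged from 5.29 in Erc2 to 6.78 in Zfyve16, at a limma adjusted p of 4.88e-08 for each.

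Counting called interactions per promoter separates a richer set of contacts from a few strong ones. Over all libraries and deposited scores, limma passed 0 of 4403 promoters (0.0%), with an unadjusted p under 0.05 for 269 higher and 122 lower, while 87 passed without Reactivated 2, 89 without Reactivated 1 and 4 without Basal 3. The largest gain was in Nr3c2, the mineralocorticoid receptor that hippocampal neurons express strongly, which had 1, 1 and 0 called interactions in Basal and 0, 0, 19 and 18 in Reactivated. Rpl21, a ribosomal protein gene, had 1, 0 and 2 against 0, 0, 14 and 15, and Spock2, a proteoglycan gene, had 1, 2 and 1 against 0, 0, 14 and 14. The mitochondrial iron importer gene Slc25a37 had 6, 5 and 3 against 0, 0, 22 and 19, and Dpp10, an auxiliary subunit of A-type potassium channels, 2, 1 and 0 against 0, 0, 12 and 12. In these 5 promoters Reactivated 1 and 2 had 0 calls, so the groups overlapped, and with deposited scores their adjusted p was 0.387 to 0.82.

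Several of these gains were smaller at equal totals. After thinning, Nr3c2 had 0 calls in every Basal library and 2 and 4 in Reactivated 3 and 4, and Spock2 had 1, 2 and 1 against 1 and 2. Rpl21 kept 7 and 6 against 1, 0 and 2 (difference 5.50 ± 0.80 SE, limma adjusted p 0.0268). The largest losses with deposited scores were those of Arfgef1, with 7, 4 and 20 calls in Basal and 0, 0, 7 and 7 in Reactivated, of the membrane ubiquitin ligase gene Rnf139 (6, 5 and 6 against 0, 0, 1 and 1), of the monocarboxylate transporter gene Slc16a11 (6, 5 and 4 against 0, 0, 1 and 1), of the NF-kB subunit gene Relb (10, 8 and 6 against 0, 0, 7 and 8) and of the calsequestrin gene Casq1 (6, 6 and 5 against 0, 0, 3 and 3). None of these 5 passed with deposited scores (adjusted p 0.441 to 0.745). At equal totals Relb had 5, 5 and 6 against 6 and 6.

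At equal totals, 593 of 3598 promoters had more called interactions in Reactivated 3 and 4 (16.5%) and 115 had fewer (3.2%). Of these 708, 552 had the same number in every library of each group (78.0%), and 417 differed by 1 call. Among all tested promoters, 552 had equal numbers within each group and a difference between groups, so every such promoter passed. For these the passing was fixed by the lack of spread, and a small p is no measure of the size of the difference. Without Basal 3 the number was 1588, with 1124 higher and 464 lower. Of all 3598 promoters, the groups did not overlap in 955 with higher and 281 with lower numbers. With 2 against 3 libraries an exact permutation test cannot go below a p of 0.1, so such a separation is weak by itself.

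The largest gains at equal totals were in promoters with many listed fragments. P4ha1, a collagen prolyl hydroxylase gene, had 3, 3 and 9 calls in Basal and 14 and 14 in Reactivated 3 and 4. Qser1 had 2, 1 and 4 against 11 and 11. The promoter of Reln, which encodes the extracellular guidance protein reelin made by interneurons, had 1, 0 and 7 against 11 and 11, and that of the prion protein gene Prnp had 2, 2 and 10 against 13 and 12. Arl4a, an ARF-like GTPase gene, had 3 calls in every Basal library and 11 in both Reactivated ones. Of these 5, Arl4a and Qser1 passed (limma adjusted p 1.94e-07 and 0.0181), and P4ha1, Reln and Prnp did not (0.12, 0.158 and 0.282), since Basal 3 lay between the other libraries. Qser1 lost the call without Basal 1, Reactivated 3 or Reactivated 4 (0.0804 to 0.0919).

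The equal Basal numbers of Arl4a came from different fragments. Basal 1 and 2 called chr12:40572063-40574797 (114 and 46), chr12:40773027-40774784 (319 and 184) and chr12:40794390-40795881 (146 and 97). Basal 3 called chr12:39988069-39988605 (21), chr12:40463618-40466373 (12) and chr12:40925585-40926038 (5). Of these 6, Reactivated 3 and 4 scored the first (211 and 215), the third (1523 and 1783) and the last (1267 and 1488). The strongest fragments of Arl4a in Reactivated 3 and 4 had no Basal score: chr12:40404800-40405176 with 2214 and 2705, and chr12:40744224-40745343 with 2103 and 2345. Reactivated 4 alone also scored a fragment far from the others, chr12:99432014-99433844, at 1758.

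Further promoters that passed at equal totals, named by p, had no called Basal interaction after thinning and equal numbers in Reactivated 3 and 4. Like Arl4a, they had no spread within a group, so their passing was fixed by that. They included Tigd2 with 7 and 7 calls, Fam13c with 6 and 6, and Gramd2, the synaptic PDZ gene Lin7c and the amino acid transporter gene Slc6a15 with 5 and 5. Abcf2, Ascc2, Csrnp3 and Cs, which encodes citrate synthase, had 3 and 3. The largest loss was in Crebzf, a bZIP factor gene with 163 listed fragments, which had 15, 15 and 21 calls in Basal and 2 and 1 in Reactivated 3 and 4 (difference -15.5 ± 2.5 SE, adjusted p 0.0352). It lost the call when any of Basal 1, Basal 2, Reactivated 3 or Reactivated 4 was left out (adjusted p 0.0878 to 0.157), and with deposited scores Reactivated 2 alone had 42 calls for it. Rnf139 had 6, 5 and 6 against 1 and 1 (adjusted p 0.00624), Etv5, an ETS factor gene, 4, 4 and 5 against 0 and 0 (0.00786), and Pdzd2 4, 5 and 7 against 0 and 1 (0.091). Casq1 (6, 6 and 5 against 2 and 2, 0.013) and Slc16a11 (5, 4 and 4 against 1 and 1, 0.0172) also passed. Etv5 lost the call when a call needed a score of 10 (limma adjusted p 0.088) or 20 (0.102), and Crebzf at 20 (0.143). Both lost it with library sets entered as means, which leaves 1 Reactivated value (differences -4.5 and -16.5). Of 14 promoters chosen by thinned calls or their p that passed, 9 kept the call at 20. Arfgef1 had 7, 4 and 20 against 6 and 6, and without Basal 3 its difference was 0.50.

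**Figure D4:**
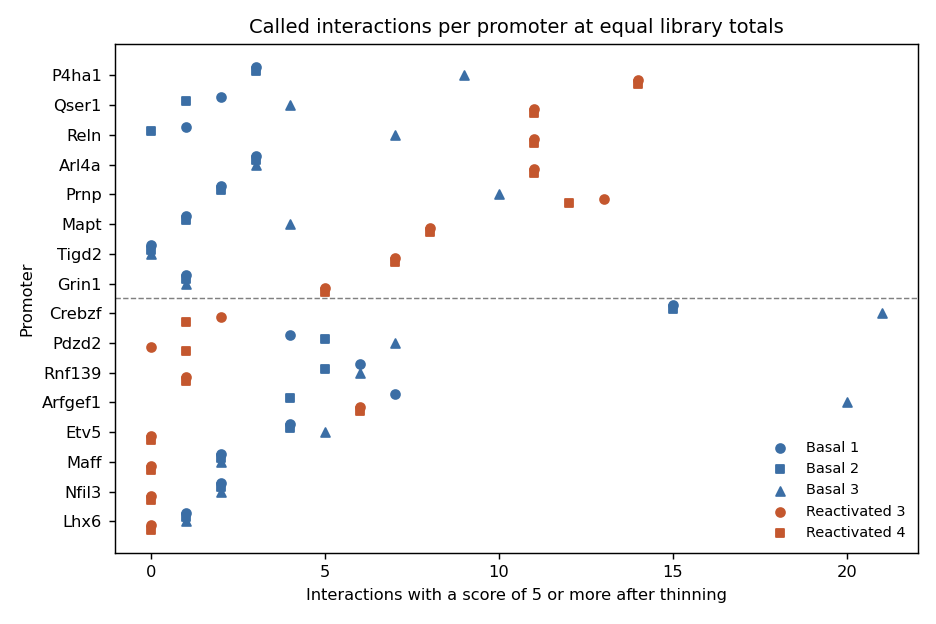
Number of interactions with a score of 5 or more after thinning to equal totals (horizontal axis) for 16 promoters in Basal 1 to 3 (blue) and Reactivated 3 and 4 (orange), with promoters of more calls in Reactivated above the dashed line and of fewer below it. Arl4a stands at 3 in each Basal library and at 11 in both Reactivated ones, while Arfgef1 has 20 in Basal 3 only.

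Gene lists are described below by the equalised mean scores of promoters, beside all 4429 promoters, of which 2948 were higher, 1088 lower, 593 passed as higher (13.4%) and 27 as lower, with a median difference of 0.48. No test of a list was made. Of the 38 promoters named in the text that passed by mean score, 17 kept the call with library sets entered as means, which merges the like libraries of every group at once. The median over all promoters was 0.13 with scores thinned to equal totals and 1.23 with deposited scores, so differences are read against the median of the same setting. By called interactions at equal totals, 2050 promoters were higher and 1380 lower, with a median of 0.

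Among 26 activity-regulated genes, those induced by synaptic activity, 16 were higher and 9 lower, 3 passed as higher and 1 as lower, and the median was 0.20. By called interactions at equal totals the direction turned, with 10 higher, 12 lower, 2 passed as higher and 3 as lower. Csrnp1, a nuclear factor, had equalised promoter means of 0, 0 and 1.49 in Basal and 3.97 and 4.16 in Reactivated 3 and 4 (difference 3.56 ± 0.54 SE, limma adjusted p 0.000834). Rgs2 had 0 in every Basal library and 3.72 in both Reactivated ones (adjusted p 0.0378), from the fragment it shares with Trove2, and lost the call when any 1 of the 5 libraries was left out (0.0655 to 0.185). Maff, a small Maf transcription factor, had 2.49, 2.42 and 2.66 in Basal and 0.18 and 0 in Reactivated (difference -2.43 ± 0.26 SE, adjusted p 4.19e-05). The fragments behind the Basal values of Maff differed: chr15:78923955-78925758 (152 and 73) and chr15:79390612-79392446 (132 and 64) in Basal 1 and 2, and chr15:79401152-79406756 (10) and chr15:79607649-79609097 (14) in Basal 3. The first of these also scored 6 in Reactivated 3.

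Nfil3 showed the same arrangement. After thinning it had 2 calls in each Basal library and 0 in Reactivated 3 and 4. The fragments chr13:52745973-52747087 (1320 and 729) and chr13:52987963-52998694 (218 and 167) were scored in Basal 1 and 2, and chr13:11906990-11909780 (16) and chr13:53184757-53185378 (17) in Basal 3. Its mean difference of -1.02 did not pass (adjusted p 0.312). Arc itself, the gene whose control drives the label, has 4 listed fragments, and none of them had a score in any Basal or Reactivated library, which for a listing without a stated detection limit is no measure of absence.

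Of 27 glutamate receptor and auxiliary subunit genes, 19 were higher and 6 lower, 4 passed as higher (Gria2, Grin1, Grin2a and Grm5) and 0 as lower, and the median was 0.32. The Grin1 promoter had 1 call in each Basal library and 5 in Reactivated 3 and 4 at equal totals. Its fragment at chr2:25129097-25133535 scored 219, 141 and 0 in Basal and 3230 and 2695 in Reactivated 3 and 4, and that at chr2:25266377-25279111 scored 0, 0 and 5 in Basal and 1869 and 1719. The fragments chr2:25052826-25053792 (1493 and 1137) and chr2:25108542-25111766 (821 and 817) were scored in Reactivated 3 and 4 only. The difference in the promoter mean was 2.96 ± 0.43 (SE, adjusted p 0.000571), and it was 0.131 as an adjusted p with library sets entered as means. Grm5, a metabotropic receptor gene with 1 listed fragment, had 0 in Basal and 4.77 and 4.34 in Reactivated. In the other direction, Gria4 had 3.49, 3.55 and 0 against 0 and 0 (adjusted p 0.0699) and called contacts in Reactivated 1 and 2, and Grin2d had 1.68, 2.24 and 0 against 0 and 0 (0.0958).

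Among 21 genes of inhibitory transmission, 16 were higher and 5 lower, and 1 passed in each direction, with a median of 0.55. Glrb, the glycine receptor beta subunit, passed as higher (0, 0 and 1.00 against 1.82 and 1.79, adjusted p 0.0303), a call lost without Basal 1, Basal 2, Reactivated 3 or Reactivated 4 (0.103 to 0.178) and with thinned scores (difference 0.59, 0.158). Lhx6, a transcription factor of interneurons, passed as lower with 3.08, 3.20 and 1.85 against 0 and 0 (difference -2.71 ± 0.65 SE, adjusted p 0.0157), and lost the call without Basal 2, Reactivated 3 or Reactivated 4 (0.0532 to 0.12). Its main fragment at chr2:36066160-36070128 scored 682, 388 and 15 in Basal and is also listed with another promoter. On fragments listed with a single promoter the difference was -0.95 and did not pass (adjusted p 0.518). By mean score, Lhx6 and Maff were the only members of these lists that passed as lower. By called interactions at equal totals other members passed as lower too, 3 of the activity-regulated list and at most 2 of any other list.

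Presynaptic release genes counted 17 higher and 3 lower of 24, with 3 passed as higher and a median of 0.55. The vesicle priming factor gene Unc13c had 0 in Basal and 2.20 and 2.30 in Reactivated 3 and 4, and Slc17a8, a vesicular glutamate transporter, 0.37, 0 and 0.68 against 2.39 and 2.22. Slc17a7, the main vesicular glutamate transporter of hippocampal pyramidal cells, had 1.99, 2.02 and 2.41 against 0.97 and 0.92 and did not pass (adjusted p 0.449). Of 12 postsynaptic scaffold and signalling genes, 7 were higher, 4 lower and 0 passed, and the median was 0.18. The scaffold genes Dlgap2 (0, 0 and 1.44 against 2.41 and 2.45) and Homer3 (1.27, 0.70 and 2.96 against 3.40 and 3.63) did not pass, and neither did Camk2g (2.50, 2.09 and 1.97 against 1.14 and 1.10). Unc13c lost its call without Reactivated 4 (adjusted p 0.052), and whether the presynaptic and postsynaptic lists differ was not tested.

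Voltage-gated channel genes were higher in 22 of 25 and lower in 3, with 4 passed as higher and a median of 0.70. Scn2b, a sodium channel beta subunit, had 0 in Basal and 3.15 and 3.20 in Reactivated, and Cacna1c, the L-type calcium channel subunit, had 0, 0 and 1.06 against 3.01 and 3.01. Genes of the cAMP, MAPK and CREB pathway were higher in 21 of 26 and lower in 3, with 5 passed as higher, among them Adcy1, Prkar2b, Pde1a and Ep300, and a median of 0.71. Rps6ka3, a kinase that phosphorylates CREB, had 0 in Basal and 2.05 and 2.04 in Reactivated (adjusted p 0.0874), and Mapk3 0, 1.32 and 2.78 against 0 and 0 (0.3).

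Chromatin regulators had the highest median of the lists with at least 5 measured promoters, 1.02, with 21 of 28 higher, 7 lower and 6 passed as higher (Hdac2, Hdac7, Kdm4b, Setd1b, Tet2 and Arid1b). The deacetylase gene Hdac7 had 0, 0 and 1.52 against 2.03 and 2.81 (adjusted p 0.028), and lost the call without Basal 1, Basal 2, Reactivated 3 or Reactivated 4 (0.07 to 0.258), on fragments of a single promoter (0.37) and with thinned scores (0.0508). The histone H3 lysine methyltransferase gene Setd2 had 0 against 1.98 and 1.98 (0.157), and the corepressor gene Trim28 had 3.68, 6.31 and 4.41 against 2.21 and 2.23 (0.237). Of 5 looping factor genes, 2 passed as higher: Nipbl, the cohesin loader, with 0 in Basal and 1.39 and 1.32 in Reactivated, and Med23, a Mediator subunit, with 0 against 1.65 and 1.59. Nipbl lost the call without any 1 of Basal 1, Basal 2, Reactivated 3 and Reactivated 4 (0.0629 to 0.114) and Med23 without Reactivated 3 or 4 (0.0882 and 0.0825). Yy1, a DNA-binding looping factor, had 1.24, 1.24 and 1.76 against 0.96 and 0.97, a difference that turned to 0.20 with deposited scores.

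The remaining lists of cell function had medians from 0 to 0.58. Adhesion and axon guidance genes counted 27 higher, 10 lower and 7 passed as higher of 40 (median 0.41), with the ephrin receptor gene Epha4 at 0 in Basal and 3.63 and 3.54 in Reactivated, Pcdh11x at 0 against 3.48 and 3.42 (adjusted p 0.0818), and the guidance cue gene Slit3 at 0.69, 0.69 and 1.86 against 0 and 0 (0.338). Ribosome and translation genes counted 30 higher, 8 lower and 8 passed of 39 (median 0.58), among them Rpl36 with 0, 0 and 1.61 against 6.32 and 6.23. Eef1a2, a neuronal elongation factor gene, had 0, 0 and 6.73 against 0 and 0. Mitochondrial respiration genes counted 19 higher, 10 lower and 5 passed of 29 (median 0.38), where Atp5o had 0.62, 0 and 0 against 2.75 and 2.62. With thinned scores the difference of Atp5o was 0.54 in place of 2.48 and did not pass (0.153). Cox6c had 9 calls in each Reactivated library against 3, 3 and 1 at equal totals. For Atp5d the values were 3.89, 4.01 and 0 against 0.44 and 0.64 (0.215).

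Ubiquitin and proteasome genes counted 12 higher, 7 lower and 3 passed of 20 (median 0.54), but 7 higher and 10 lower by called interactions at equal totals (median -0.083). Those that passed by mean score included Psmd4, a ubiquitin receptor of the proteasome, with 0 in Basal and 3.74 and 3.77 in Reactivated, and Ube2z with 0 against 3.83 and 3.90. Fbxo11 had 3.76, 3.85 and 1.31 against 0.80 and 0.80 (adjusted p 0.095). Cytoskeleton and motor genes counted 17 higher, 8 lower and 3 passed of 26 (median 0.20). The Mapt promoter, which drives the microtubule protein tau, had 0.34, 0.33 and 1.19 in Basal and 3.77 and 3.72 in Reactivated (difference 3.13 ± 0.51 SE, adjusted p 0.00138). Its strongest fragment at chr11:104096093-104098204 scored 5501 and 5580 in Reactivated 3 and 4 and 0 in Basal, and its fragment at chr11:104052966-104060931 scored 409 and 216 in Basal 1 and 2 and 1420 and 1455 in Reactivated 3 and 4. Tuba1b had 0 against 2.23 and 2.50, with an adjusted p of 0.00569 that became 0.0551 without Reactivated 4. On fragments listed with a single promoter its difference was 0.50 in place of 2.37 and did not pass (0.172). The neurofilament gene Nefh had 5.26, 5.41 and 0 against 0 and 0 (0.0625). DNA damage response genes counted 6 higher, 6 lower and 2 passed as higher of 13 (median 0), namely Msh6 and Rad23b, mismatch and excision repair genes, the latter not without Reactivated 3 or 4 (0.059 and 0.0564).

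Promoters of genes that mark other cell types were listed too, with differences in both directions. Of 9 astrocyte marker genes, 7 were higher, 1 lower and 3 passed as higher, including Gfap with 0 in Basal and 5.06 and 5.08 in Reactivated 3 and 4, and Slc1a3 with 0 against 2.75 and 2.73. Without Reactivated 3 or 4, Gfap (adjusted p 0.0792 and 0.0875), Olig2 (0.0674 and 0.114) and Pou3f1 (0.0555 and 0.0753) lost their calls. Of 10 oligodendrocyte marker genes, 6 were higher, 4 lower and 1 passed, Olig2 (0 against 1.62 and 1.83). By called interactions at equal totals 4 were higher and 5 lower. Mobp had 1.31, 1.33 and 1.10 against 0.47 and 0.48. Of the 2 microglial genes measured, Cx3cr1 passed with 0 in Basal and 3.83 and 3.44 in Reactivated, and both endothelial and mural genes measured were lower without passing. Of 17 hippocampal neuron marker genes, 13 were higher, 4 lower and 3 passed as higher, among them Pou3f1 (0 against 2.64 and 2.79) and Meis2 (0 against 2.29 and 2.40). Rbfox3, which encodes the NeuN protein used in the sort, was scored in Basal 1 only, at 4.83, and C1ql2 had 2.70, 1.34 and 0.63 against 0.57 and 0.58. The list medians were 0.71 for astrocyte, 0.31 for oligodendrocyte and 0.73 for hippocampal neuron markers. Whether glial nuclei contributed was not tested.

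**Figure D5:**
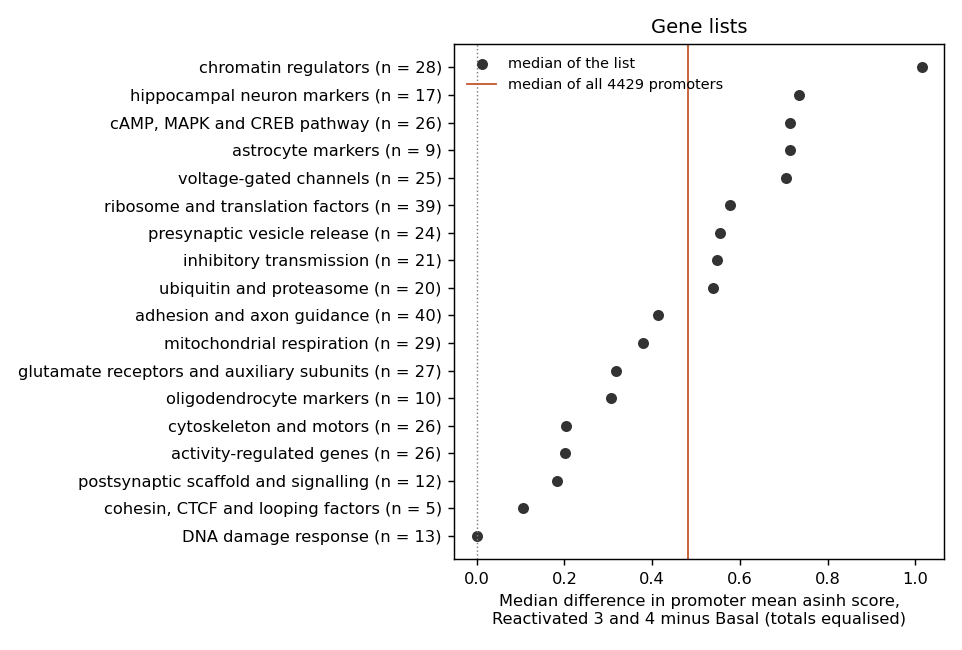
Median difference in the promoter mean asinh score, Reactivated 3 and 4 minus Basal at equal totals (horizontal axis), for the 18 gene lists with at least 5 measured promoters, with n the number measured. The orange line is the median of all 4429 promoters, 0.48; chromatin regulators lie at 1.02 and DNA damage response genes at 0.

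The layout of contacts along the genome is described by fragment length, listings per promoter and span. The median fragment length was 3157, 3106 and 3065 bases in Basal 1 to 3 and 2963 and 2974 bases in Reactivated 3 and 4, and 4.72% to 5.67% of the fragments lay on chromosome 7. Promoters with a score had 1.86, 1.79 and 2.76 listings each in Basal and 3.26 and 3.34 in Reactivated 3 and 4, and 2.76 and 2.77 in the latter after thinning. Among promoters with at least 2 scored fragments, the median distance between the outermost ones was 277, 247 and 3686 kb in Basal and 389 and 413 kb in Reactivated 3 and 4, so Basal 3 stood apart from every other one of these 5 libraries. For 7 layout measures an exact two-sided permutation test over libraries gave an adjusted p of 1 for each with all libraries, where the smallest possible unadjusted p is 0.0286. Without Reactivated 1 and 2 the smallest possible p is 0.1, so this design cannot reach 0.05. The numbers of fragments and promoters and the median fragment length reached that smallest p. Listings per promoter and the share of fragments listed with several promoters did not (exact permutation p 0.2 and 0.5). The groups did not overlap in fragments, promoters, fragment length, listings per promoter or fragments with several promoters, and the test compares group means. They did overlap in the median span and in the share of the total score in the top 1% of fragments. That share was 6.25%, 5.94% and 8.82% in Basal and 8.03% in both Reactivated 3 and 4 (exact permutation p 0.4).

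Reactivated 2 had another layout. Of its 335 fragments, 49.3% lay on chromosome 7, and the median length was 5639 bases, and 47.5% were among the fragments of 6378 to 37547 bases, a class that held 20.0% to 21.1% in the other library sets. Reactivated 1, whose fragments all recur in Reactivated 2, had 34.4% on chromosome 7. Of the 388 listings of Reactivated 2, 13.7% were scored in both Reactivated 3 and 4, 13.7% in Basal 3 and 12.1% in both Basal 1 and 2. Within 50 kb the shares were 33.0%, 24.5% and 21.4%, and of the promoters with a listing in Reactivated 2, 89.4%, 66.1% and 65.2% had one in those sets. The sets differ in size, with the most listings in Reactivated 3 and 4.

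Stronger contacts of Reactivated 3 and 4 recurred more widely. Of the 11094 listings scored in both, 5379 (48.5%) were scored in no other library set of the series, and their median score in Reactivated 3 was 261. The median was 339 for the 3301 listings found in 1 other set, 455 for the 1495 found in 2 and 480 for the 579 found in 3, and it was 780 for the 215 found in 4. Beyond that the classes hold 91 listings or fewer. Those 5379 contacts of the deepest Reactivated pair had no observation outside it in the table.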

How the data were processed

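Promoter-capture Hi-C was analysed in 7 libraries, 4 Reactivated and 3 Basal. The authors deposited 1 table of interaction scores per promoter and fragment, whole numbers with a dot where a library has none, taken as 0. The deposited score has no stated definition or detection limit, and for the aligner, scoring program and any normalisation nothing was given in the sources used here. The build is mm9 per the submitters' processing notes. Fragments were not annotated with genes, and distances to baits were not used here. Total scores ranged from 3097 to 8218439, and single values carry no interval because the scores may not be counts.

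Scores were transformed with asinh. Limma 3.58.1 (R 4.3.3, statmod 1.5.0) with a variance trend was fitted over all listings or promoters, with the Early and Late libraries sharing the estimate of spread. Benjamini-Hochberg adjustment ran over the whole table, at 0.05. The second comparison left out Reactivated 1 and 2 (13 libraries) and scaled totals to be equal. Called interactions were scores of 5 or more, also after thinning to a total of 110226 in the 5 libraries. Library measures were compared by exact permutation tests. The fits were tested on simulated data with planted changes and without the alike pairs of libraries. Recovery of those changes was not required for the 13-library fit on shuffled scores. The check therefore does not cover how such pairs affect the calls. Tables and tests used scipy 1.17.1 and pandas 2.3.3 under Python 3.11.15, and figures used matplotlib 3.10.9.

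The rule for named genes took the 6 fragments of largest rise and of largest fall over all libraries, the 8 with the largest rise and fall between Reactivated 3 and 4 and Basal by presence, the 6 listings highest in both groups, 5 promoters of largest gain and 5 of largest loss in called interactions, up to 10 that passed per comparison by p, up to 2 per list and direction, and Arc. Clone names, olfactory receptors, microRNAs and predicted genes were passed over, and a few items that the rule names are not reported here. The members and lists were chosen with earlier results of these data known. Same-numbered Basal and Reactivated libraries did not deviate together (correlations -0.00574, -0.00482 and -0.00608), so replicate numbers were not taken as pairs. Alternatives were other scales, filters, thresholds, library sets as means or blocks, and leaving out each library.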

Additional observations from a re-analysis of the deposited data

Results flagged for a closer look

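In 48 sets of 4 Reactivated values that were looked at, 5 had 1 library far from the other 3, by a gap, as a share of the whole range, above the 95% critical value of Dixon's test. Chance gives such a gap in about 1 of 20 sets. Among library measures, the median fragment length stood apart in Reactivated 2 at 5639 bases (gap 0.922 of the range). The median span of scored fragments per promoter stood apart in Reactivated 1 (0.995), which rests on 1 promoter with at least 2 fragments. The share of fragments listed with several promoters was low in Reactivated 1 at 9.375% (0.878), from 32 fragments. Among named fragments, those of Cldn12 (1.0) and Zdhhc3 (1.0) were scored in Reactivated 2 alone of the Reactivated libraries, at 1000 and 57.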

How the results depend on the processing

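The Reactivated group holds 1 deep pair of libraries that share their fragments, and the Basal group 2 kinds, so each count below depends on which libraries enter. For all listings (0 passed), 9052 passed without Reactivated 1 and 2, 146 without a variance trend and 90 by presence or absence of a score, and leaving out 1 library gave 0 to 4468. For promoter means over all libraries (1 passed), the number was 3 for listings scored in at least 2 libraries, 2 without a variance trend, 27 with only the libraries of both groups, 0 with library sets as means, 0 with the set as a random block, 5 with fragments of a single promoter, 17 with totals equalised, 2020 without Reactivated 1 and 2, 19 after quantile normalisation and 0 to 62 with 1 library left out. For promoter means of Reactivated 3 and 4 (620 passed), it was 1174 for listings scored in at least 2 libraries, 1377 with only the libraries of both groups, 93 with set means, 104 with the set as a block, 2020 with deposited scores and 232 to 772 with 1 library left out. For called interactions over all libraries (0 passed), it was 1 with totals equalised, 1280 without Reactivated 1 and 2 and 0 to 89 with 1 library left out. For called interactions at equal totals (708 passed), leaving out 1 library gave 644 to 1588. Called Basal interactions (9856) became 6264 when a call needed 20, 3877 when it needed 2 libraries of the group and 4863 to 9580 with 1 library left out, and called Reactivated interactions (12289) became 6594 after thinning.

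With the replicate number as a block, 0 promoter means passed over all libraries, and 400 promoters and 6738 listings passed for Reactivated 3 and 4. Pairing by number had no support in the libraries' deviations. The block could not be fitted to the thinned counts of 5 libraries. The difference changed sign for the Ascl4 fragment with deposited scores (1.30), for the Cd47 fragment with the replicate block (-1.80) and without Basal 3 (-0.371 to 0.543 with 1 library left out), for calls of Arfgef1 without Basal 3 (-7.5 to 0.5 with 1 library left out) and for Yy1 with deposited scores (0.20). Of 22 named fragments that passed at equal totals, 16 kept the call with library sets as means and 10 by presence or absence. The causes were not tested. With 2 Reactivated libraries or fewer, the lone or paired libraries are assumed to vary like the other groups. Scores near the lowest total, 110226, limit which weak contacts can be seen after thinning.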
